A study of Mus musculus with 3 samples.

Results

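The small heat shock proteins are a family of low-molecular-weight chaperones, and 7 of their genes were examined in normal mouse muscle: Hspb1, Hspb2, Hspb3, Hspb6, Hspb7, Hspb8 and Cryab, the gene of alpha-B-crystallin. The genes were chosen by name, and each probe set that the platform annotation assigned to exactly 1 of them was taken. This gave 13 probe sets of 6 genes, out of 22690 probe sets on the array, of which 20393 carried 1 gene name. No probe set carried the symbol Hspb6, so that gene was not measured here under its own name. Hspb7, Hspb8 and Cryab had 3 probe sets each, Hspb1 had 2, and Hspb2 and Hspb3 had 1.

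Small heat shock proteins share the alpha-crystallin domain and assemble into oligomers that bind unfolding proteins without using ATP, holding them until chaperones of the Hsp70 family refold them or they are degraded. Striated muscle is known for carrying many members of the family, which bind desmin, titin, filamin C and actin at the Z-disc and around it. Mutations of CRYAB, HSPB8 and other members are known causes of muscle and nerve disease in people.

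Expression was measured on 3' expression arrays in 3 samples of muscle tissue, named muscle 1, muscle 2 and muscle 3, 1 array per sample. All came from littermate controls aged 3 to 6 weeks. The labels give no strain or allele for them, do not say which muscle was taken, and do not say whether the samples came from separate mice, so an SD here may hold technical spread alone, and so may each p-value. In the study they were the normal reference for tumours of Pax7-expressing satellite cells. The labels describe a hindlimb injection of 4-hydroxytamoxifen in a protocol shared by the tumour and normal samples, and do not say whether these littermates received it. No tumour array was analysed here, so there is 1 group and no contrast between conditions. In whole tissue, a different number of cells of a type and a different amount of RNA per cell cannot be told apart.

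All levels are the deposited log2 values from RMA, a method that corrects background, equalises the distribution of signals between arrays and merges the several probes of a set into 1 value. A step of 1 is a 2-fold difference. To define background, 96 probe sets of 70 genes typical of other organs, such as retina, testis and pancreas, were taken, and their 95th percentile in a muscle was its background level. The highest value on an array was 13.73 to 13.75. The background level was 5.98, 6.04 and 6.13 in muscles 1, 2 and 3. All 9 measured markers of skeletal muscle fibres were above it in each muscle, among them Acta1 at 13.62 ± 0.03 (SD, n = 3) and Ckm at 13.61 ± 0.01. All 5 measured lens markers were below it in every muscle. The 3' minus 5' signal of the control probe sets, a measure of how complete the labelled transcripts were, had a mean of 0.38 for Gapdh and 0.71 for Actb, with SDs of 0.048 and 0.089. Of 11133 probe sets tested for excess variance (below), 17 were called, and muscle 3 was the muscle farthest from the others in 16 of them.

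Promoter sequences show one feature that several members have in common, a short inverted repeat. It is of a kind found within heat shock elements, to which heat shock factors bind. The RefSeq sequences used (build GRCm38.p6) run from 250 bases before to 50 bases after each annotated start. Entries were present for 5 of the 7 genes: Hspb1, Hspb3, Hspb7 and Hspb8 with 1 promoter each and Hspb6 with 2. Hspb2 and Cryab had no entry. The motif GAANNTTC, which reads the same on both strands, lay in a promoter of 4 of these 5 genes (4 of the 6 entries) and in 7.86% of all 32851 promoters. In the following stretches, written 5′ to 3′ on the strand of the gene, capitals mark each match.

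Hspb1, chr5:135887784-135887847, plus strand: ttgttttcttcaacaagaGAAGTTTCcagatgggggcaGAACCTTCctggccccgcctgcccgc

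Hspb3, chr13:113663875-113663918, minus strand: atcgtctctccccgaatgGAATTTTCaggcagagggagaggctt

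Hspb6, chr7:30553163-30553206, plus strand: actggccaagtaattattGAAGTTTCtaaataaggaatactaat

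Hspb8, chr5:116422844-116422873, minus strand: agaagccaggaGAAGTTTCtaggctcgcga

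Hspb1 was the only one of the 5 with a pair of matches, beginning at -117 and -97 from its start. In Hspb3 the match began at -224, in the second Hspb6 promoter at -120, and in Hspb8 it began 3 bases into the transcript. The same 8 letters, GAAGTTTC, occurred in Hspb1, Hspb6 and Hspb8. Hspb7 had no match in this window. The opposite arrangement, TTCNNGAA, is a repeat of the same kind, also the same on both strands. It was in 0 of the 6 member promoters and in 8.52% of all promoters. TATAAA, searched on both strands, was found in Hspb3 at -11 and in Hspb6 at -29, against 13.6% of all promoters. The MEF2 consensus, bound by a family of transcription factors of muscle, was found only in Hspb3, at -12, where it overlaps TATAAA, against 3.19% of all promoters. CAGCTG, an E-box of the kind that myogenic factors bind, was in no member promoter and in 16.3% of all promoters. The CArG box of serum response factor was likewise absent, against 1.63%. A match describes letters in this window and was not tested as a binding site.

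The small heat shock proteins were above background throughout normal muscle. Of the 13 probe sets, 12 were above the background level in all 3 muscles and 1, of Cryab, was below it in every muscle. Among all probe sets with 1 gene name, 49.5% were above background in all 3 muscles. Counted by gene, with a gene judged by its highest probe set, all 6 measured members were above background in each muscle, against 56.7% of the 12394 genes on the array. Binding strength varies from one probe set to another, so the order of levels between genes was not read as an order of abundance.

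**Figure D1:**
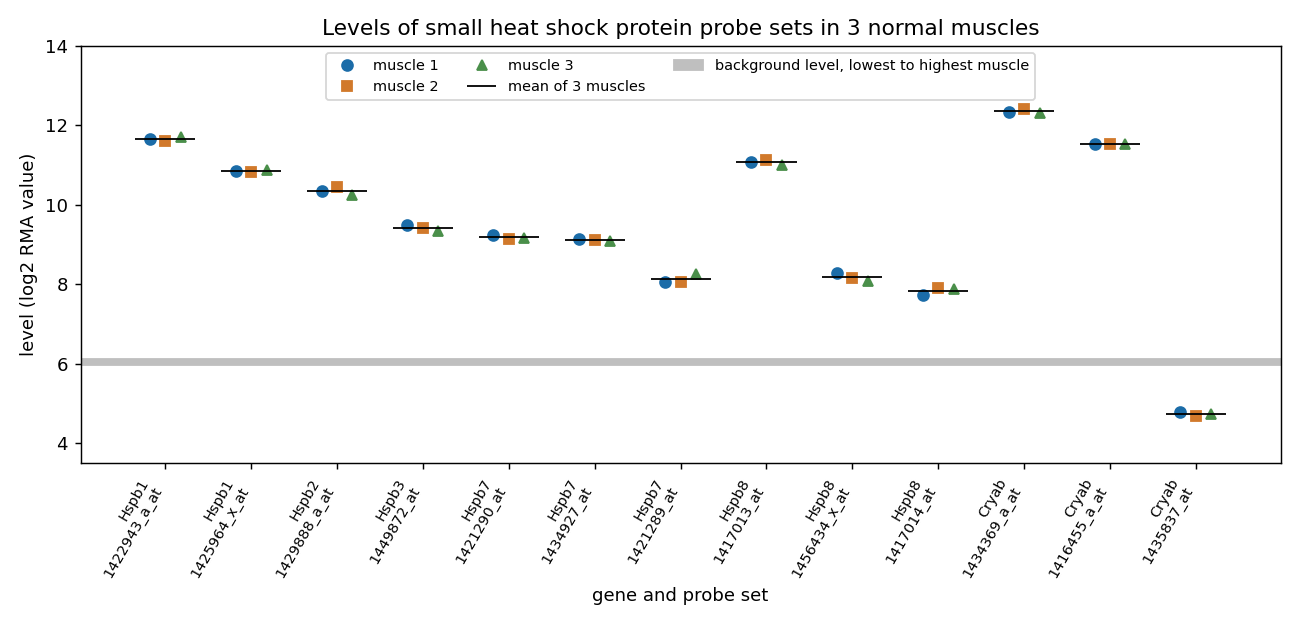
Log2 RMA level (vertical axis) of the 13 probe sets of small heat shock protein genes, by gene and probe set (horizontal axis), in muscles 1, 2 and 3 (circles, squares, triangles), with the mean of the 3 as a line and the span of the background level as a grey band. In each probe set the 3 muscles lie within 0.22 of each other, and 12 of the 13 sit clear of the band, the exception being 1435837_at of Cryab.

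Cryab encodes alpha-B-crystallin, which protects desmin and titin in muscle and is a main protein of the lens. Its probe set 1434369_a_at was at 12.35, 12.42 and 12.31 in muscles 1, 2 and 3, a mean of 12.36 ± 0.055 (SD, n = 3). Muscle 2 was the highest, and the 3 values spanned 0.11, a factor of 1.08. The second probe set, 1416455_a_at, was at 11.53, 11.54 and 11.54, a mean of 11.54 ± 0.010. Its range of 0.018 was the narrowest of the 13. The third, 1435837_at, was at 4.78, 4.68 and 4.73, below background by 1.32 on average. It is the only one of the 13 for which the platform table lists no source transcript. In each muscle, then, 2 probe sets of Cryab were above background and 1 was below it.

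Hspb2 encodes a partner and activator of the myotonic dystrophy protein kinase, and is expressed mainly in heart and skeletal muscle. Its single probe set, 1429888_a_at, was at 10.35, 10.46 and 10.24 in muscles 1, 2 and 3, a mean of 10.35 ± 0.11. Muscle 2 was the highest and muscle 3 the lowest, and the range of 0.22, a factor of 1.17, was the widest among the members. In RefSeq the span annotated for Cryab overlaps that of Hspb2 and of 2310030G06Rik on chromosome 9. The muscles stood in the same order for Hspb2 as for the Cryab probe set 1434369_a_at, with muscle 2 above muscle 1 and muscle 1 above muscle 3. The other Cryab probe set above background, 1416455_a_at, did not have this order, its lowest value being in muscle 1. Across 3 samples such an order carries no test.

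Hspb3 encodes the small partner with which the Hspb2 protein forms complexes in muscle. Probe set 1449872_at was at 9.51, 9.41 and 9.33 in muscles 1, 2 and 3, a mean of 9.41 ± 0.087. Its muscles stood in another order than those of Hspb2, with muscle 1 highest and muscle 3 lowest, over a range of 0.17.

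Hspb1 encodes the stress-inducible chaperone known as Hsp25 in mice, which binds actin filaments and is phosphorylated by Mapkapk2. Probe set 1422943_a_at was at 11.67, 11.60 and 11.70 in muscles 1, 2 and 3, a mean of 11.66 ± 0.050. Probe set 1425964_x_at, whose suffix marks probes that can match other transcripts, was at 10.85, 10.82 and 10.87, a mean of 10.85 ± 0.024. Muscle 3 was the highest and muscle 2 the lowest in both. The difference between the probe sets was nearly the same in each muscle, 0.81 ± 0.026.

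Hspb8 encodes the chaperone that acts with Bag3 to send damaged filamin to autophagy. Probe set 1417013_at was at 11.09, 11.13 and 11.01 in muscles 1, 2 and 3, a mean of 11.08 ± 0.062. Probe set 1456434_x_at was at 8.28, 8.17 and 8.09, and 1417014_at at 7.73, 7.90 and 7.88. The order of the muscles differed between the 3 probe sets: muscle 1 was the highest for 1456434_x_at and the lowest for 1417014_at. Both were above background in each muscle, but 1417013_at was higher than them by 2.90 ± 0.081 and 3.24 ± 0.11. The level of Hspb8 read from this array thus depends on the probe set by far more than on the muscle.

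Hspb7 encodes the cardiovascular member of the family, which binds filamin C. Probe sets 1421290_at and 1434927_at gave close values, with 9.24, 9.13 and 9.17 in muscles 1, 2 and 3 for the first and 9.13, 9.12 and 9.08 for the second. Their means were 9.18 ± 0.056 and 9.11 ± 0.028. Probe set 1421289_at was lower, at 8.06, 8.05 and 8.25, a mean of 8.12 ± 0.11, and muscle 3 was its highest. Muscle 3 did not lead in the other probe sets of Hspb7, where muscle 1 was the highest.

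The spread between the 3 muscles was small in size for these genes. Over the 12 probe sets above background the SD ran from 0.010 to 0.11 on the log2 scale, with a median of 0.059, a factor of 1.04. For all 11133 probe sets above background in at least 1 muscle the median SD was 0.087. Spread falls with level on this array, and for the 5364 probe sets with means in the same span as the members, 7.83 to 12.36, the median was 0.062. None of the 12 had a range of 1 or more, against 0.638% of the probe sets tested.

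Excess variance was tested with limma, which set the variance of each probe set over the 3 muscles against the variance fitted to all probe sets of like level. By limma's variance test with Benjamini-Hochberg adjustment, 0 of the 12 member probe sets were called, against 0.153% of all those tested. At an unadjusted p under 0.05 there were 0 member probe sets as well, and 563 of 11133 over the array. Hspb2 came nearest, with an SD of 0.11 against a fitted value of 0.052 at its level, and an adjusted p of 0.98 by limma. The SD was below the fitted value in 5 of the 12 and above it in 7, whereas over all probe sets tested 58.3% were below it. The median ratio of the SD to the fitted value was 1.12 for the members and 0.88 for all. The ratios of the members ran from 0.26 for Cryab 1416455_a_at to 2.15 for Hspb2.

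**Figure D2:**
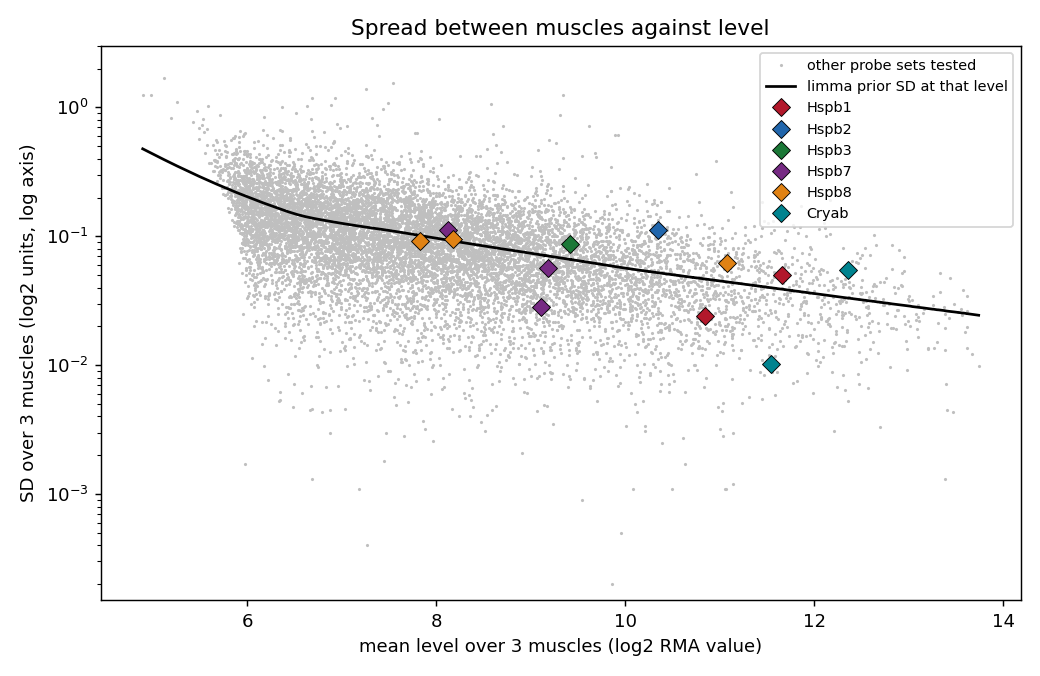
SD over the 3 muscles in log2 units (vertical axis, log scale) against the mean log2 RMA level (horizontal axis) for the 11133 probe sets tested (grey points), with the SD that limma fitted at each level (line) and the 12 member probe sets above background (coloured diamonds). The members lie on both sides of the line, with Hspb2 at 2.15 times its value and Cryab 1416455_a_at farthest below it.

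No muscle was high or low for the family as a whole. For each muscle a departure was taken, its level less the average of the other two. The median departure over the 12 probe sets was 0.0095, -0.0017 and -0.033 in muscles 1, 2 and 3, beside 0.026, 0.011 and -0.037 over all probe sets tested. In muscle 1, 7 of the 12 were higher than the mean of the others, in muscle 2 it was 6, and in muscle 3 it was 5. Over all probe sets tested the shares were 60.1%, 53.8% and 37.6%. Muscle 1 was the farthest from the others in 5 probe sets, muscle 2 in 4 and muscle 3 in 3. Over the whole array muscle 3 was the farthest in 40.8% of probe sets. The direction of these small medians was not stable: after quantile normalization of the 3 columns the median in muscle 3 was 0.0083, and after median centring that in muscle 2 was 0.0008.

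**Figure D3:**
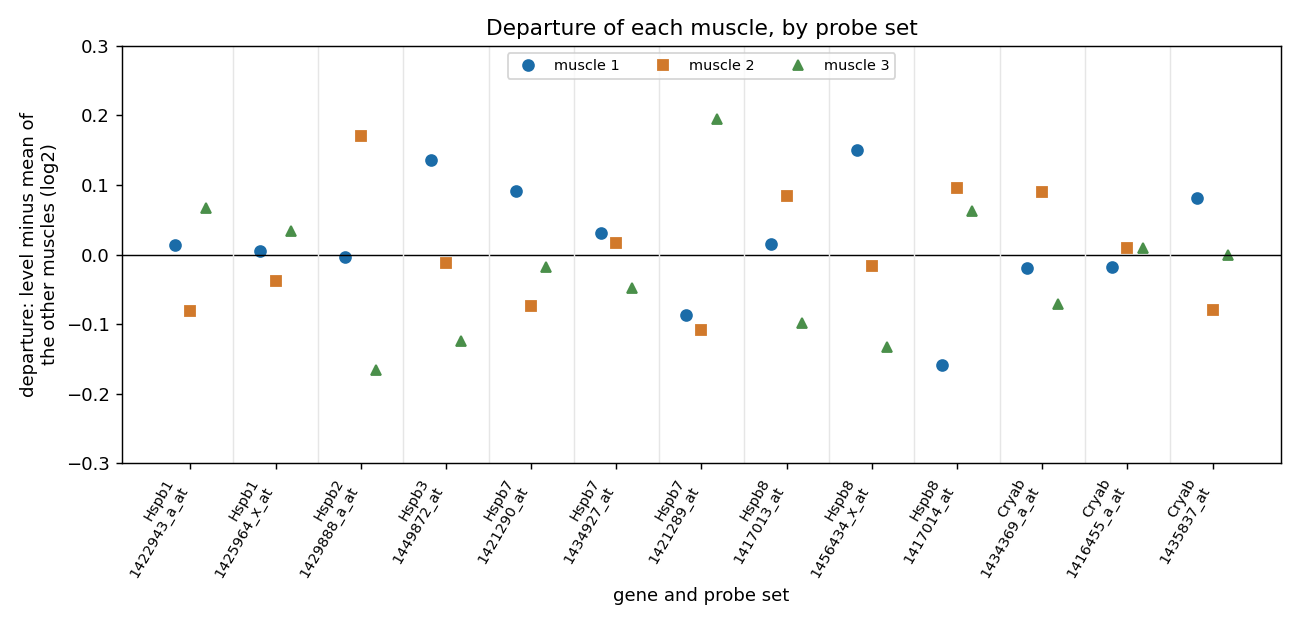
Departure of each muscle from the mean of the others in log2 units (vertical axis) for the 13 probe sets (horizontal axis), with muscles 1, 2 and 3 as circles, squares and triangles. Departures reach 0.20 at most, in Hspb7 1421289_at for muscle 3. For Hspb7 and Hspb8 the probe sets of the same gene place different muscles highest. In Cryab 1416455_a_at muscles 2 and 3 were level, both at 0.009.

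Relatives of these genes that are known from other tissues were mostly below background. Of 3 other measured genes, Cryaa, the alpha-A-crystallin of the lens, was below background in every muscle, at 4.12, 4.10 and 4.21. Odf1, a protein of the sperm tail, was below it as well, at 3.56, 3.20 and 3.39. Hspb11, an intraflagellar transport protein that carries the family name, was at 7.47, 7.37 and 7.45, above background, although its second probe set was below it. Of 12 measured lens crystallins of the beta and gamma families, which are unrelated to the small heat shock proteins in sequence, 9 were below background in every muscle and 2 were above it in all. Crygs was at 4.53 ± 0.31, Crybb2 at 5.41 ± 0.13 and Cryba1 at 3.46 ± 0.13, all below background. The 2 above it were Crygf at 6.60 ± 0.21 and Crybb1 at 7.14 ± 0.17, the latter named after its values were seen.

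A list written for heat shock factors and genes tied to them held 7 genes, of which 5 were measured. Hsf1, the main factor of the heat shock response, had no probe set of its own name here. Hsf2 and Hsf4 were below background in each muscle, at 5.15 ± 0.057 and 5.68 ± 0.082. Hsbp1, a protein that binds and restrains Hsf1, was at 10.14 ± 0.065. The RNA helicase gene Ddx41, which the list also held, had the widest range, 0.61, with 6.40, 6.12 and 5.79 in muscles 1, 2 and 3, with the last of these below background.

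In the list of Hsp70, Hsp90 and their cochaperones, all 20 measured genes were above background in each muscle, against 56.7% of all genes on the array. Hsp90ab1, also listed, had no probe set of its own name. Whether each of the 20 takes over clients from small heat shock proteins was not tested. The inducible Hsp70 genes Hspa1b and Hspa1a were at 8.30 ± 0.057 and 7.15 ± 0.16, and Hspa1l at 6.62 ± 0.13. In muscle 3 Hspa1l was at 6.50, under the 99th percentile of the background probe sets there, 6.69. Hspa2 was under that percentile in muscles 2 and 3, at 6.49 and 6.48 against 6.58 and 6.69. Dnaja1, an Hsp40 cochaperone, had the widest range, 0.32, with 9.38, 9.48 and 9.16 in muscles 1, 2 and 3. None of the 20 was called by limma's variance test. In muscle 3, 4 of the 20 were higher than the mean of the others, as were 37.6% of all probe sets tested, with a median departure of -0.053, beside -0.037 over all probe sets tested. After quantile normalization of the columns the counts were 7 of 20 and 5342 of 11133, and the medians were -0.017 and -0.0057.

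Partners of Hspb8 in chaperone-assisted autophagy were above background in all muscles for 8 of 9 genes, beside 56.7% of all genes on the array. The cochaperone Bag3 was at 9.56 ± 0.059, the constitutive Hsp70 Hspa8 at 12.15 ± 0.031 and the ubiquitin ligase Stub1 at 10.48 ± 0.055. Vps18 was the exception, at 6.28, 6.32 and 5.88, below background in muscle 3. All 9 were higher in muscle 1 than the mean of the others, or 7 after quantile normalization and 8 after median centring, and so were 60.1% of all probe sets tested as deposited. Their median departure there was 0.083, beside 0.026 over all probe sets tested. For the Hspb8 probe sets themselves the departures in muscle 1 were 0.015, 0.15 and -0.16.

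All 11 measured clients in the sarcomere and cytoskeleton were above background in each muscle, beside 56.7% of all genes on the array. Desmin (Des) was at 12.69 ± 0.0033, filamin C (Flnc) at 10.02 ± 0.049 and titin (Ttn) at 13.25 ± 0.035. Of 2 Des probe sets, 1 was above background in all muscles. The kinase bound by Hspb2, Dmpk, had the widest range of the list, at 10.53, 10.45 and 10.72 in muscles 1, 2 and 3. Muscle 3 was thus the highest for Dmpk and the lowest for Hspb2, and muscle 2 the reverse. Across 3 samples this opposite order carries no test, and only the higher of 2 Dmpk probe sets was read. The adjusted p of Dmpk by limma's variance test was 0.83.

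Of 8 measured kinases linked, directly or not, to the phosphorylation of small heat shock proteins, 6 were above background in all muscles. Another 1 was above it in part of them and 1 in none. Over all genes on the array, 56.7% were above background in all muscles. Mapkapk2, which phosphorylates the Hspb1 protein, was at 9.82 ± 0.045, Mapkapk5 at 9.42 ± 0.077 and the p38 kinase Mapk14 at 10.36 ± 0.14. Of 4 Mapk14 probe sets, 1 was above background in all muscles. Prkd1 had the widest range, 0.44, and was above background in muscle 1 alone. Its values were 6.03, 5.68 and 6.13, of which the last lay just under the higher background level of muscle 3. Among 14-3-3 proteins, which bind phosphorylated Hspb6, 6 of 7 were above background, with Ywhag at 11.57 ± 0.038, Ywhab at 11.16 ± 0.034 and Ywhae at 11.82 ± 0.065. Ywhag is also the gene next to Hspb1 in the RefSeq order of chromosome 5. Ywhaz had the widest range of the group, 0.22.

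**Figure D4:**
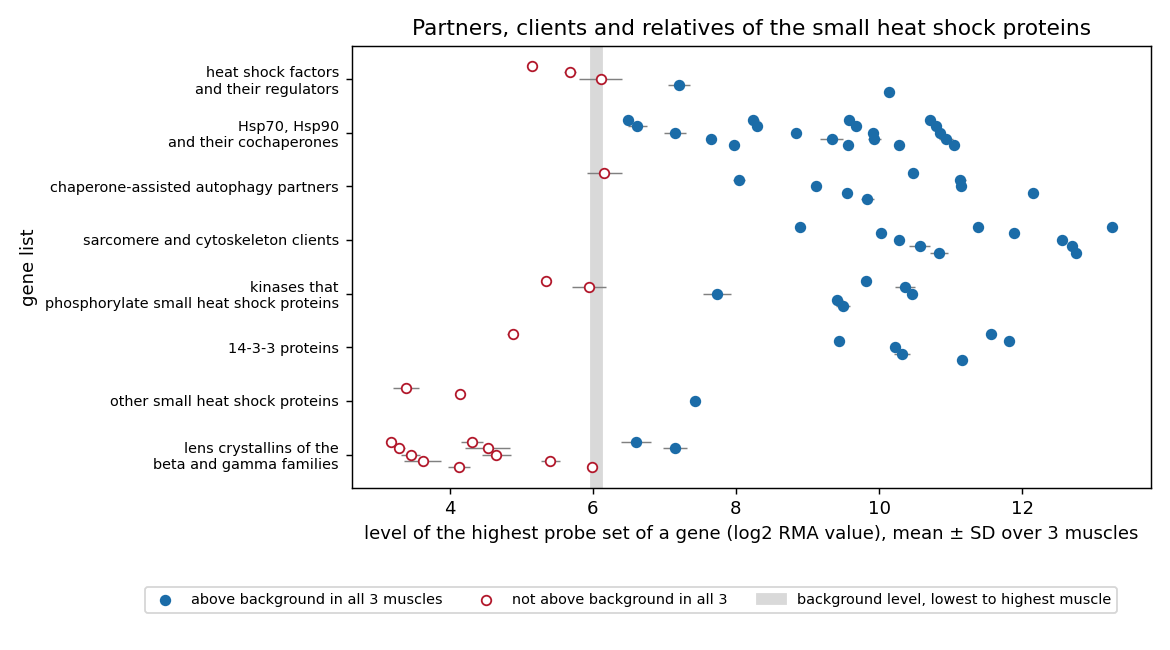
Gene level by highest probe set (horizontal axis, log2 RMA value, mean with a bar of 1 SD over 3 muscles) in 8 lists of genes related to the small heat shock proteins (vertical axis), with the span of the background level as a grey band. Filled points were above background in all 3 muscles and open points were not. All 20 points of the Hsp70 and Hsp90 list are filled, while 9 of the 12 lens crystallins lay below background in every muscle.

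Cells other than muscle fibres also carry some of these genes, and their markers were present. Smooth muscle and pericyte markers were above background in all muscles for 9 of 10 genes, endothelial markers for 6 of 6, fibroblast markers for 6 of 6, macrophage markers for 4 of 5, adipocyte markers for 3 of 4 and Schwann cell markers for 2 of 4. Heart muscle markers were above it for 1 of 8. Over all genes on the array the share was 56.7%. The smooth muscle list had median departures of -0.024, 0.041 and -0.035 in muscles 1, 2 and 3, with 4 of its 9 genes above background higher in muscle 3. Slow fibre genes, which mark the fibres known for more alpha-B-crystallin, were all above background, with median departures of 0.013, 0.015 and -0.0093 in muscles 1, 2 and 3 (0.010, -0.0025 and 0.011 after quantile normalization). Those of the 11 fast fibre genes were 0.017, -0.011 and 0.0004 (0.015, -0.0054 and -0.0037 after it). Immediate early genes, which respond to handling of tissue, had median departures of 0.14, 0.032 and -0.17 in the same order. After quantile normalization these were 0.11, 0.014 and -0.13. Over all probe sets tested the medians as deposited were 0.026, 0.011 and -0.037. The part of these cells and genes in the levels of small heat shock proteins was not tested.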

How the data were processed

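Each array came with 1 log2 value for each probe set, which the authors deposited. RMA is the method named in the submitters' processing notes. Neither its version, nor a genome build, nor which arrays were processed as one set is given in the sources used here. Per the labels' protocols, RNA was extracted with Trizol and 500 ng was labelled. Values carry no detection calls. Precision is limited by having 3 arrays.

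Gene names came from GEO's platform annotation. Of 22690 probe sets, 20393 had 1 gene, 691 several and 1606 none listed. All 13 member probe sets matched RefSeq by Entrez number.

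Computed here were means, SDs, ranges, departures and detection against background. The variance test (limma 3.58.1, R 4.3.3) used 2 degrees of freedom, a robust prior with a trend on level, a one-sided F test and Benjamini-Hochberg adjustment at 0.05 over 11133 probe sets above background in at least 1 muscle. It was tested on simulated data. Python 3.11.15, numpy 2.4.6, pandas 2.3.3 and matplotlib 3.10.9 did the rest.

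Members, lists and background genes were chosen with earlier results of these data known. Named genes are all members and, of each list tied to them, the first 3 measured genes in written order and the one of widest range among those above background. Tissue and cell type lists, slow and fast fibres and immediate early genes are given as counts or medians, apart from the levels of Acta1 and Ckm. A listed gene was read by its highest probe set. No gene was named for a pattern like that of a member, since 3 samples do not allow a correlation.

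The alternatives were other scalings of the columns, a 99th percentile background or none, leaving out cross-matching probe sets or a muscle, other limma settings, 1 value per gene and a 1.5-fold limit on the range.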

Additional observations from a re-analysis of the deposited data

How the results depend on the processing

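The counts of members held under every alternative run, while counts for the other gene lists were not rerun at another background level and moved with the scaling where stated above. Above background stayed 6 genes, and 12 probe sets, or 10 where the 2 cross-matching ones were left out. The limma call count stayed 0 of the member probe sets, and the lowest adjusted p of a member was 0.938, in the fit with no trend. At an unadjusted p under 0.05, Hspb2 was the only member in any setting, without muscle 1 and in the fit on the highest probe set of each gene. Over the whole array limma's calls were less stable, with 17 as reported, 30 after quantile normalization, 6 at the stricter background and between 1 and 5 with a muscle left out. They numbered 0 with no trend, with a prior that was not robust and with probe sets averaged, where 388, 470 and 302 had an unadjusted p under 0.05. No range reached 1.5-fold. The median SD of 0.059 ran from 0.048 to 0.054 with a muscle left out. Quantile normalization kept the lowest muscle of all 13 probe sets and the highest of 12, the exception being Hspb8 1417014_at. Ranges moved by more than the SD of the probe set in 2 cases under quantile normalization and in 13 when the farthest muscle was left out, which shortens a range by construction. Median departures changed sign in muscle 2 and muscle 3 under other settings, by less than the median SD of the members. No paired analysis was possible because there is a single group. Without probe-level signals, saturation could not be tested.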
